A study of Mus musculus with 3 samples.

Results

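The dual-specificity MAP kinase phosphatases are the enzymes that switch MAP kinases off, and 9 of their genes were examined here: Dusp1, Dusp2, Dusp4, Dusp5, Dusp6, Dusp7, Dusp8, Dusp10 and Dusp16. They were chosen as a family by gene symbol and not by a cut on measured values, though earlier results of these data were known. All 9 were found among the 55536 annotated mouse genes of the deposited tables, of which 22028 were protein-coding. The cells were macrophages grown from the bone marrow of C57BL/6J mice. A first exposure to Lipid A, the part of bacterial lipopolysaccharide that Toll-like receptor 4 recognises, lasted 12 h at 100 ng/ml. The stimulus was then washed out for 12 h, and a renewed exposure at 100 ng/ml lasted 120 min. Total RNA of the cytosolic fraction was sequenced after removal of ribosomal RNA. The labels gave this 1 group with 3 biological replicates under 1 donor entry and no age or sex. Nothing states that the replicates were separate animals or cultures, so the spread and the p-values may measure technical differences only. No untreated or once-treated cells were analysed here, so the values below are levels and not responses.

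MAP kinases are switched on when a threonine and a tyrosine in their activation loop are phosphorylated, and the dual-specificity phosphatases remove both phosphates. The family is usually divided by place and substrate: inducible nuclear enzymes (Dusp1, Dusp2, Dusp4, Dusp5), cytoplasmic enzymes that prefer ERK (Dusp6, Dusp7; Dusp9 is a relative), and enzymes that prefer JNK and p38 (Dusp8, Dusp10, Dusp16). Several are themselves transcribed in response to MAP kinase activity, which makes them negative feedback regulators, and in macrophages Dusp1 is known to limit cytokine production after lipopolysaccharide.

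The stretches before the start sites of 4 members are shown because they hold every match of the CRE, the E-box and the CArG box found among these genes. They come from the RefSeq table of build GRCm38.p6, which listed 8 of the 9 members, read 5′ to 3′ on the strand of the gene and without bases that lie in an annotated exon of the gene itself. Capitals mark the CRE (TGACGTCA, bound by CREB and ATF factors), the E-box (CACGTG, bound by basic helix-loop-helix factors) and the CArG box (bound by serum response factor). The stretches lie at chr17:26508520-26508722 (minus strand) for Dusp1, chr2:127335909-127336158 (plus) for Dusp2, chr19:53528895-53529108 (plus) for Dusp5 and chr7:142095285-142095534 (minus) for Dusp8.
Dusp1: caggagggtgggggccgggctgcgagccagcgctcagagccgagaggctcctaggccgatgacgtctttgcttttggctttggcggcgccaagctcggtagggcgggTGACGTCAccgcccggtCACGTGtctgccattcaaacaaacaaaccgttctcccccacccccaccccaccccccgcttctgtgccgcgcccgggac
Dusp2: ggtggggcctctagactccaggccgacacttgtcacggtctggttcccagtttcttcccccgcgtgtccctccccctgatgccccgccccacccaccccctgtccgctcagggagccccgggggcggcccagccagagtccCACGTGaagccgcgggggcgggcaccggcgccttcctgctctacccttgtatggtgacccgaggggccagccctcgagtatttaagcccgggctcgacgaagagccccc
Dusp5: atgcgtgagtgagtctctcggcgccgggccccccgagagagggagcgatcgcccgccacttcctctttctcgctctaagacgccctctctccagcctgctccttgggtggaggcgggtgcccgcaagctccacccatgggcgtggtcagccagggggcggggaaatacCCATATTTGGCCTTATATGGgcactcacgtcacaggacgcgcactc
Dusp8: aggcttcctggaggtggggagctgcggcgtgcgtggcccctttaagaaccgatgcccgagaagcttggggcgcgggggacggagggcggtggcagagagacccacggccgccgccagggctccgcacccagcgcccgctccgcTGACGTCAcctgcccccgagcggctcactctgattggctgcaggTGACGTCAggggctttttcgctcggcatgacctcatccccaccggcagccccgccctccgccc
Over the 250 bases before the start, on both strands, the CRE was present in 2 of the 8 members, once in Dusp1 and at 2 places in Dusp8, against 1.55% of 32851 promoters of the same length. The 5-letter core TGACG, which the CRE contains, was present in 4 members (Dusp1, Dusp5, Dusp8, Dusp16) and in 17.8% of all promoters. The CArG box was present in 1 member, Dusp5, at 2 adjoining places, against 1.47% of promoters. The E-box was present in 2 members, Dusp1 and Dusp2, against 6.02%. The GC box (GGGCGG) was present in 6 members and in 32.7% of promoters. G and C made up 56.4% (Dusp6) to 77.2% (Dusp7) of the members' windows. The promoters set beside them were not matched for base composition, for this or any other motif. The AP-1 site (TGACTCA, 4.46% of promoters), the NF-kappaB site (3.90%), the TATA box (TATAAA, 12.4%) and the ETS core (CCGGAAGT, 2.88%) were present in 0 of the 8 members in this window. These are matches of letters, and no binding was measured. The motifs were chosen after the members' promoters had been read. The shares over all promoters are therefore given for scale and are no test of enrichment in the members.

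The 3′ untranslated regions were searched for ATTTA, the core of AU-rich elements, through which proteins such as tristetraprolin (Zfp36) speed the decay of mRNA. Stretches of 30 bases from the 3 members with the most copies are shown, with the copies in capitals and neighbouring copies joined.
Dusp1: gctggtccttATTTATTTAacacccccctc
Dusp2: aaattaATTTAattaattaATTTActatat
Dusp8: tcgattttttATTTATTTAagctagtgatc
Dusp1 held 4 copies in 690 bases, and 91.4% of 1096 transcripts with a 3′ untranslated region of like length held fewer. Dusp2 held 4 copies in 581 bases, and 94.2% of 1062 transcripts with such a region of like length held fewer. Dusp8 held 5 copies in a longer region of 2370 bases, where 58.4% of transcripts with a region of like length held fewer. Dusp10 and Dusp16 held 3 copies each, Dusp4 held 2, Dusp5 and Dusp6 held 1 each and Dusp7 held 0. Among 8458 leading coding transcripts of genes of at least 1 TPM in every library, 65.4% held at least 1 copy and the median was 1. A longer form, TTATTTA followed by 2 letters that are each A or T, was also counted. Dusp1 held 2 copies of it, Dusp8 and Dusp10 held 1 each, and the other members, Dusp2 among them, held 0. Of the 8458 transcripts, 15.1% held the longer form.

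The 3 libraries held about 29376900, 64822100 and 37665800 expected counts in replicates 1, 2 and 3. The level of a gene is given as TPM, a share of all transcripts corrected for their length. All 12 macrophage markers were above 1 TPM in each library, 10 of them above 100 TPM, and together they came to 7258 to 8231 TPM. Of the markers of T and NK cells, B cells, dendritic cells, fibroblasts and erythroid cells, 0 were at 1 TPM or more throughout, and their summed levels lay between 0.01 and 1.53 TPM. Of 10 neutrophil markers 3 did (sum 6.03 to 9.31 TPM), namely S100a9, S100a8 and Mmp8. Their means were 3.48, 2.08 and 1.98 TPM, while Ly6g stood at 0, 0.01 and 0 TPM. Of 5 endothelial markers 2 did (sum 4.66 to 11.03 TPM), namely Kdr and Vwf. In replicates 1, 2 and 3 Kdr stood at 7.09, 3.24 and 2.29 TPM and Vwf at 2.95, 2.92 and 1.62. Tek was at 0 in every library. Replicate 3 stood apart in Malat1, a nuclear RNA, at 952 TPM against 191 and 133 in replicates 1 and 2. Its mitochondrial-encoded genes took 0.398% of the TPM against 0.156% and 0.125%. Protein-coding genes took 32.5% of the TPM in replicate 1 and 26.5% and 27.1% in replicates 2 and 3, which raises their TPM in replicate 1.

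Dusp2 and Dusp1 had the most abundant transcripts of the family, Dusp16, Dusp7 and Dusp4 followed, and Dusp5, Dusp6, Dusp10 and Dusp8 stood near or below 1 TPM. All values in the account of the members are TPM of the deposited gene table, as mean ± SD with n = 3 libraries, unless another scale is named. The summed level of the 9 genes was 102, 72 and 54.65 TPM in replicates 1, 2 and 3, a mean of 76.2 ± 24.0. In bulk RNA, fewer cells that express a gene and less RNA per cell cannot be told apart. Of the 9 members 5 reached 1 TPM in every library (Dusp1, Dusp2, Dusp4, Dusp7, Dusp16), beside 39.1% of protein-coding genes (8612 of 22028). At a limit of 5 TPM 4 members did, beside 5211 of the 22028. The count at 1 TPM depends on the scale, since other RNAs take most of the TPM. With TPM rescaled to the total of protein-coding and long noncoding genes, 8 members reached 1, and all 9 had at least 10 expected counts in each library. For neither of these counts was the share over all genes computed, so they are not read as particular to the family.

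**Figure D1:**
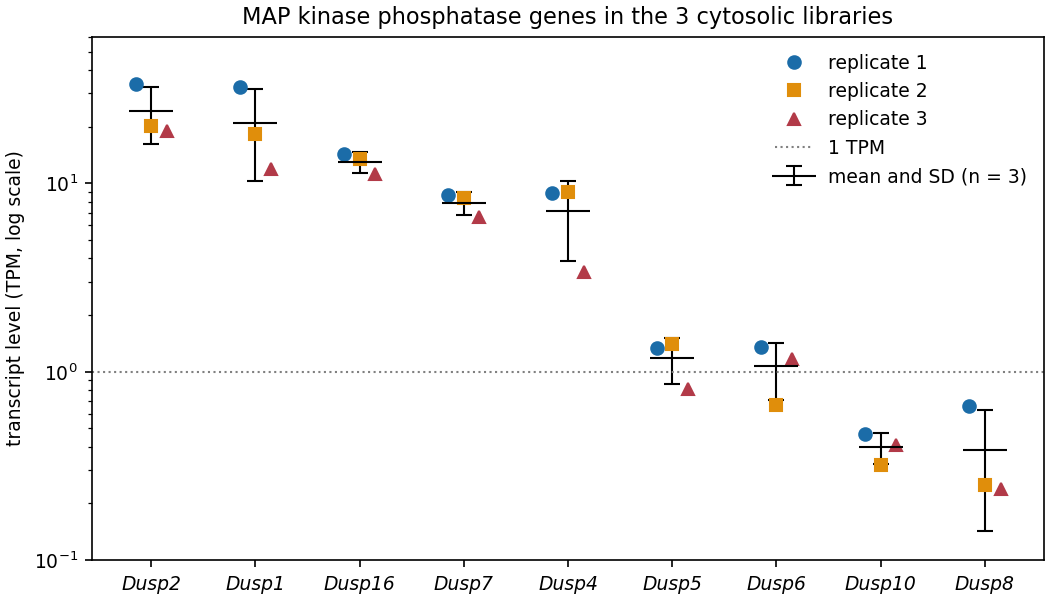
Level of each phosphatase gene in TPM on a log axis, with 1 point per library, and bars for the mean and SD of 3 libraries. Dusp2 and Dusp1 lie highest with means of 24.25 and 20.9 TPM, and Dusp10 and Dusp8 lie below 1 TPM in every library.

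The nuclear inducible enzymes held the largest share of the family's transcripts and were all lowest in replicate 3. Dusp2, a nuclear phosphatase known mainly from immune cells, measured 33.59, 20.20 and 18.96 TPM in replicates 1, 2 and 3, from 2130, 3377 and 1709 expected counts (ENSMUSG00000027368.6, mm10, chr2:127336159-127338376, plus strand). Replicate 1 was high and the other libraries lay close together, with a mean of 24.25 ± 8.11, and 91.7% of protein-coding genes lay below that mean. The mean was 19.6 without replicate 1 and 26.9 without replicate 3. Dusp1, which acts on p38 and JNK above all, stood at 32.59, 18.22 and 11.93 TPM, from 2510, 3585 and 1326 expected counts (ENSMUSG00000024190.7, chr17:26505590-26562128, minus strand). Its 3 values were all apart, the highest 2.73 times the lowest, and its mean was 20.9 ± 10.6, with 15.1 without replicate 1 and 25.4 without replicate 3. The annotated span of Dusp1 shares 640 bases with Ergic1 on the opposite strand, which stood at 10.79, 10.65 and 9.89 TPM. Whether the counting used strand is not given in the sources used here, so reads in that overlap may not be assigned with certainty.

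Dusp4, a nuclear phosphatase of ERK and JNK, stood at 8.93, 9.00 and 3.37 TPM, from 1037, 2755 and 587 expected counts (ENSMUSG00000031530.6, chr8:34807297-34819894, plus strand). Replicates 1 and 2 were alike and replicate 3 was low, with a mean of 7.10 ± 3.23. Without replicate 3 the mean was 8.97. Dusp5, a nuclear enzyme selective for ERK, stood at 1.34, 1.41 and 0.81 TPM, from 139, 387 and 126 expected counts (ENSMUSG00000034765.6, chr19:53529109-53542431, plus strand), with a mean of 1.19 ± 0.328. As for Dusp4, replicate 3 was the low one, and its 95% interval of 0.675 to 0.964 TPM lay below those of replicate 1 (1.13 to 1.58) and replicate 2 (1.27 to 1.56). Such intervals are exact Poisson limits on the expected count and cover counting error only.

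The cytoplasmic ERK phosphatases were led by Dusp7. Dusp7 stood at 8.67, 8.39 and 6.60 TPM, from 1169, 2910 and 1236 expected counts (ENSMUSG00000053716.9, chr9:106368632-106375724, plus strand), a mean of 7.89 ± 1.12. On TPM the highest value was 1.31 times the lowest. On counts scaled to library size and composition (TMM-scaled CPM) the highest was 1.46 times the lowest, and replicate 2 was the highest. Dusp6, a feedback inhibitor that ERK signalling itself induces in many cells, stood at 1.36, 0.67 and 1.17 TPM, from 135, 205 and 205 expected counts (ENSMUSG00000019960.8, chr10:99263231-99267489, plus strand), a mean of 1.07 ± 0.356. Here replicate 2 was the low library, unlike for the nuclear enzymes, which were all lowest in replicate 3. Dusp9, the third cytoplasmic relative, had 4, 11 and 0 expected counts, and the catalytically inactive relative Styxl1 had 0, 1 and 3, so 0 of these 2 reached 1 TPM.

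Among the phosphatases of JNK and p38, Dusp16 was abundant and the others were scarce. Dusp16, a large enzyme that favours JNK, stood at 14.39, 13.54 and 11.16 TPM, from 2960, 7125 and 3346 expected counts (ENSMUSG00000030203.17, chr6:134715468-134792625, minus strand), a mean of 13.03 ± 1.67. It had the smallest ratio of highest to lowest value in the family, 1.29 on TPM, while on TMM-scaled CPM (counts scaled to library size and composition) Dusp10 had the smallest, 1.24 against 1.32. Dusp10, which acts on p38 and JNK in both compartments, stood at 0.47, 0.32 and 0.41 TPM, from 56, 99 and 73 expected counts (ENSMUSG00000039384.8, chr1:184013302-184075636, plus strand), a mean of 0.400 ± 0.0755. The 95% counting intervals were 0.355 to 0.610 in replicate 1, 0.260 to 0.390 in replicate 2 and 0.321 to 0.516 in replicate 3, and each overlapped the others. Dusp8 stood at 0.66, 0.25 and 0.24 TPM, from 104, 126 and 75 expected counts (ENSMUSG00000037887.11, chr7:142079490-142095843, minus strand), a mean of 0.383 ± 0.240. Replicate 1 alone was high, and without it the mean was 0.245.

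The order of the levels was firm at some steps and not at others. For each pair of neighbours the log2 ratio of their TPM was taken within each library, and a step was taken as beyond the spread where the ratio had 1 sign in all 3 libraries and its mean exceeded its SD. By this rule 4 of the 8 steps were beyond the spread. Dusp16 lay above Dusp7 by 0.73 ± 0.03, Dusp4 above Dusp5 by 2.49 ± 0.38 and Dusp6 above Dusp10 by 1.37 ± 0.26 log2 units. Dusp1 lay above Dusp16 by 0.57 ± 0.55, with single values of 1.18, 0.43 and 0.10, and this step was not beyond the spread without replicate 2 (0.64 ± 0.77) or in the second deposited quantification (0.58 ± 0.59). Dusp2 lay above Dusp1 in 3 of 3 libraries, but by less than the spread (0.29 ± 0.33). This step was beyond the spread in the second quantification (0.31 ± 0.30), without replicate 1 (0.41 ± 0.37) and without replicate 3 (0.10 ± 0.07). Dusp7 and Dusp4 were not separated (0.28 ± 0.60), and without replicate 3 the ratio was -0.07. Dusp5 against Dusp6 gave 0.17 ± 0.82, and -0.28 without replicate 2, while Dusp10 against Dusp8 gave 0.21 ± 0.64, -0.07 without replicate 3 and -0.21 in the second quantification.

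As shares of the family, which do not depend on what other RNAs take, Dusp2 held 31.9% ± 3.44 and Dusp1 26.4% ± 5.14 of the summed TPM. Together they held 64.9%, 53.4% and 56.5% in replicates 1, 2 and 3, a mean of 58.3% ± 5.95. The nuclear inducible enzymes together held 75.0%, 67.8% and 64.2%. The JNK and p38 enzymes held 15.2%, 19.6% and 21.6%, and Dusp16 made up nearly all of that with 17.8% ± 3.28. The cytoplasmic ERK enzymes held 9.83%, 12.6% and 14.2%. The nuclear share was thus highest in replicate 1. A larger share of 1 class makes the shares of the others smaller, so those were smallest there. In level, on deposited TPM only, the other classes were also highest in replicate 1. Their sums in replicates 1, 2 and 3 were 15.52, 14.11 and 11.81 TPM for JNK and p38 enzymes and 10.03, 9.06 and 7.77 for cytoplasmic ERK enzymes. On TMM-scaled CPM the leading members of these classes were highest in replicate 2. Dusp16 stood at 103, 113 and 85.4 and Dusp7 at 40.5, 46.2 and 31.5. On that scale Dusp8 and Dusp10 were highest in replicate 1 and Dusp6 in replicate 3.

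**Figure D2:**
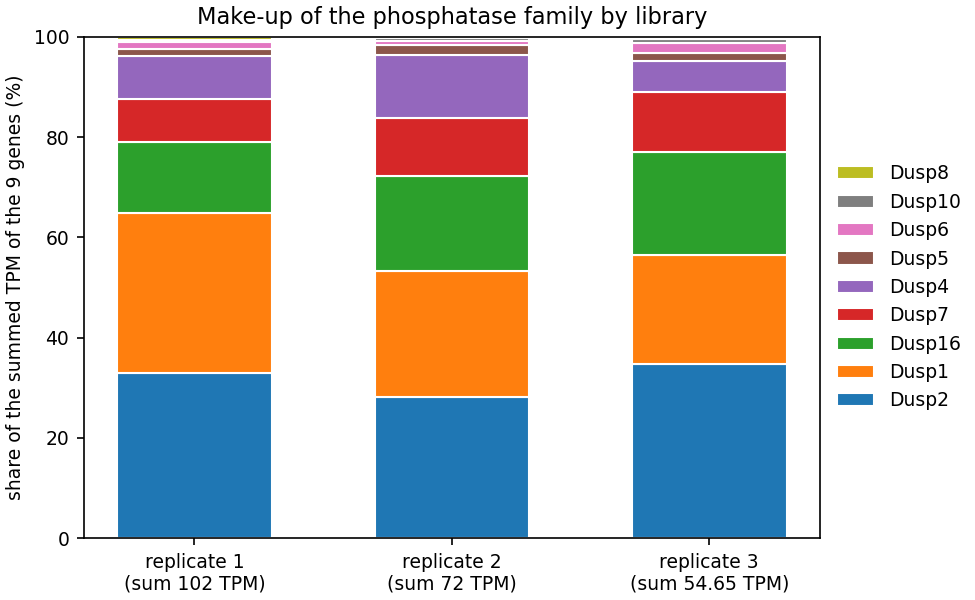
Share of each gene in the summed TPM of the 9 phosphatase genes, as stacked bars from 0 to 100% with 1 bar per library. Dusp1 and Dusp2 together take 64.9%, 53.4% and 56.5%, and Dusp16 takes 14.1%, 18.8% and 20.4%.

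Differences between libraries went beyond counting error for most members, as for most genes. In a chi-square test of counts across the 3 libraries, which compares libraries and not conditions, 8 of 9 members passed an adjusted p of 0.05 (Benjamini-Hochberg over all 14568 genes tested), beside 72.0% of all genes tested. The scaling was edgeR's TMM, which corrects for library composition. The values were most uneven for Dusp1 (adjusted p = 1.04e-179) and Dusp4 (adjusted p = 1.22e-130), whose highest TMM-scaled CPM was 2.57 and 2.92 times the lowest. The member that did not pass was Dusp10 (adjusted p = 0.404, chi-square test). Dusp8 passed (adjusted p = 5.10e-06) but not without replicate 1 (adjusted p = 0.817), and Dusp6 passed (adjusted p = 7.99e-06) but not without replicate 2 (adjusted p = 0.464).

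Replicate 3 was the low library for most of the family. Of the 7 members with a mean of at least 1 TPM, 6 had their lowest level there, all but Dusp6, beside 34.8% of 8973 protein-coding genes with such a mean. Dusp8 was also lowest there, though at 0.24 against 0.25 TPM. As a departure, log2(TPM + 1) in a library minus the mean of the others, Dusp4 stood at -1.19 in replicate 3, and only 0.134% of protein-coding genes departed further down. Dusp1 stood at -0.97, with 0.468% of genes lower, and Dusp2 at -0.44, with 5.10% lower. Dusp5, Dusp7, Dusp16 and Dusp8 stood at -0.39, -0.33, -0.30 and -0.22, and Dusp10 and Dusp6 at 0.02 and 0.13. The 1 added to each TPM shrinks the departures of members near or below 1 TPM, so this ranking depends on it. With 0.1 added instead, Dusp5 and Dusp8 stood at -0.70 and -0.60, further down than Dusp2 at -0.46. Dusp7 and Dusp16 then stood at -0.37 and -0.32, and Dusp10 and Dusp6 at 0.06 and 0.26. The median departure of the 9 members in replicate 3 was -0.33, beside -0.06 for the protein-coding genes. On TMM-scaled CPM these medians were -0.44 and -0.05. The part of the higher Malat1 and mitochondrial RNA of replicate 3 in these values was not tested.

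Replicate 1 was the high library for Dusp1, Dusp2 and Dusp8 on every scale used. Of the 7 members with a mean of at least 1 TPM, 5 were highest there, beside 62.4% of protein-coding genes, and of all 9 members 7 were. On rescaled TPM, and in the second deposited quantification, only Dusp1, Dusp2 and Dusp8 were highest in replicate 1, and on CPM scaled by TMM or by DESeq2 size factors Dusp10 was added. Dusp1 departed by 1.09 log2 units in replicate 1 and Dusp2 by 0.75, and 99.3% and 96.7% of protein-coding genes lay lower. On TMM-scaled CPM these departures were 0.97 and 0.60, and in the second quantification as deposited they were 0.65 and 0.38. Dusp4 differed from both, since on TPM it was about as high in replicate 2 (0.60) as in replicate 1 (0.59). On other scales Dusp4 was higher in replicate 2, at 0.88 against 0.47 on TMM-scaled CPM and 0.83 against 0.40 on rescaled TPM.

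**Figure D3:**
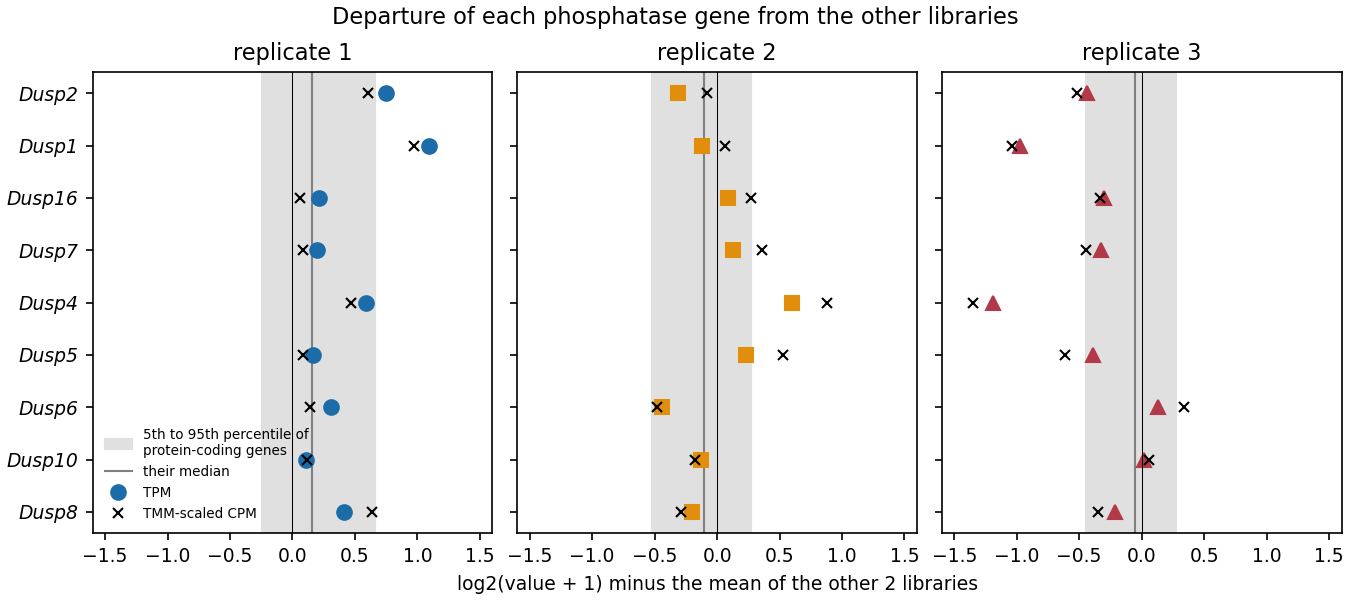
Departure of each phosphatase gene in each library from the mean of the others, in log2 units, with coloured points for TPM, crosses for TMM-scaled CPM and the grey band for the 5th to 95th percentile of protein-coding genes. On TPM, Dusp4 (-1.19) and Dusp1 (-0.97) lie left of the band in replicate 3. Right of the band lie Dusp1 (1.09) and Dusp2 (0.75) in replicate 1 and Dusp4 (0.60) in replicate 2.

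The genes with the profile most like that of Dusp2, the most abundant member, were Mylip, Gpx3 and Ifi27l2a. The measure was the Euclidean distance of centred log2(TPM + 1) over the 3 libraries, among 3741 other protein-coding genes with a mean of at least 10 TPM. Mylip, a ubiquitin ligase of the LDL receptor, stood at 25.98, 15.5 and 14.5 TPM (distance 0.00451). Gpx3, a secreted glutathione peroxidase, stood at 40.28, 24.08 and 22.88 TPM (distance 0.0120). Ifi27l2a, an interferon-induced gene, stood at 276, 167 and 159 TPM (distance 0.0163). In all, 66 genes lay within a distance of 0.1, so 3 libraries separate few patterns.

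Most members were read from 1 main coding transcript. Dusp4 and Dusp5 have 1 annotated transcript each, and Dusp10-201 held all of the Dusp10 TPM. Dusp2-201 held 94.8% ± 4.58 of the gene's TPM and Dusp7-201 92.9% ± 5.10. Dusp6-201 held 69.1%, 97.0% and 92.3% in replicates 1, 2 and 3, and Dusp8-201 70.1%, 88% and 96%. These last shares rest on few counts, since Dusp8-202, the short runner-up of Dusp8, had 5.76, 2.31 and 0.29 expected counts.

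The split between coding transcripts of Dusp1 and Dusp16 depended on which deposited transcript table was read. For Dusp1, Dusp1-202 held 65.8% ± 9.45 and Dusp1-206 29.1% ± 7.40 in the first table, but 88.2% ± 8.42 and 3.25% ± 3.81 in the second. For Dusp16, Dusp16-201 held 66.0% ± 4.25 and Dusp16-202 28.6% ± 3.90 in the first table, but 83.7% ± 6.80 and 7.01% ± 3.49 in the second. For both genes the transcript with the highest mean share was the same in either table. For Dusp8 the tables differed as well, with Dusp8-201 at 64.1% ± 22.2 in the second table, where Dusp8-202 led in replicate 2 with 53.3% against 46.7%.

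**Figure D4:**
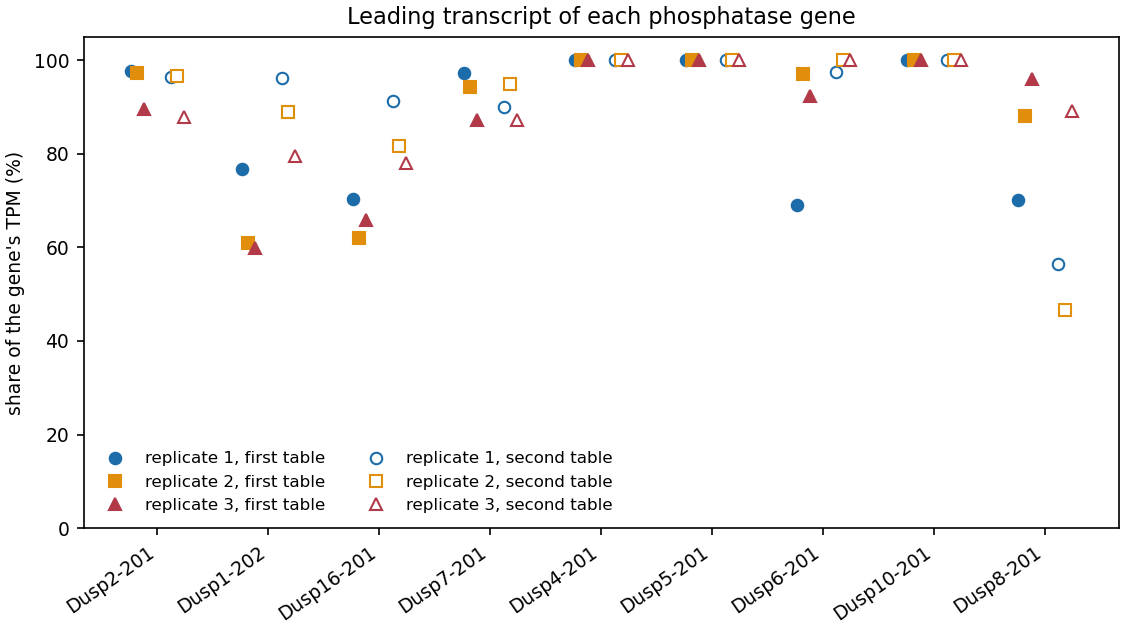
Share of each gene's TPM held by its leading transcript, in percent, with filled points for the first transcript table and open points for the second, and 1 point per library. Dusp1-202 and Dusp16-201 lie higher in the second table (88.2% and 83.7% on average) than in the first (65.8% and 66.0%).

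Transcripts with a retained intron made up a larger share of Dusp1 and Dusp2 in replicate 3, as in most genes. For Dusp1 their share was 2.49%, 4.01% and 8.80% in replicates 1, 2 and 3, and for Dusp2 2.32%, 2.72% and 10.4%. Over 5470 genes with such transcripts the median share was 1.09%, 0.883% and 4.47%, and in 75.9% of them replicate 3 was highest. With coding transcripts alone Dusp1 stood at 31.78, 17.49 and 10.88 TPM and Dusp2 at 32.81, 19.64 and 16.98 TPM, in the same order of libraries as the gene totals.

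The second quantification gave the same order of the members except at the bottom. As deposited its levels were lower, with Dusp2 at 11.1 ± 2.18 and Dusp1 at 9.27 ± 3.37 TPM, Dusp8 at 0.232 ± 0.0918 and Dusp10 at 0.191 ± 0.0250. With either quantification rescaled to the total of protein-coding and long noncoding genes, the log2 ratio of the second to the first lay between -0.14 and -0.03 for 8 members and at 0.38 ± 0.19 for Dusp8. Over 9943 protein-coding genes the median ratio was -0.00725, with a 5th to 95th percentile of -0.18 to 0.41.

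The kinases that these phosphatases act on were present in each of the 3 classes, ERK, p38 and JNK. Of the ERK class, Mapk3 (ERK1) stood at 33.5 ± 6.02 TPM. Of the 4 p38 genes 1 reached 1 TPM in every library, Mapk14 (p38 alpha) at 19.9 ± 1.33 TPM, and Mapk11 stood at 0.417 ± 0.0586. Of the 3 JNK genes 2 did, Mapk9 (JNK2) at 13.1 ± 3.50 and Mapk8 (JNK1) at 3.05 ± 0.583 TPM. The median level over all protein-coding genes was 0.12 TPM, and 8.03 among the 8612 that reached 1 TPM, so lists of known pathway genes are read here as levels only. The phosphatase genes had a median of 6.81 ± 2.98 TPM.

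Upstream, 6 of 7 MAP2 kinase genes reached 1 TPM in every library, with a median of 9.92 ± 1.68, led by Map2k1 and Map2k2 (MEK1 and MEK2, which activate ERK) at 30.1 ± 7.97 and 27.9 ± 1.498 TPM. All 13 MAP3 kinase genes did, with a median of 8.40 ± 1.28, led by Araf at 15.2 ± 1.48 and Map3k11 at 14.1 ± 0.349 TPM. Downstream, 9 of 10 effector kinase genes did, with a median of 16.0 ± 2.64. Among these, Mapkapk2 (MK2), which p38 activates and which stabilises AU-rich mRNAs, stood at 125 ± 28.2 and Rps6ka1 (RSK1, activated by ERK) at 22.0 ± 0.564 TPM.

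**Figure D5:**
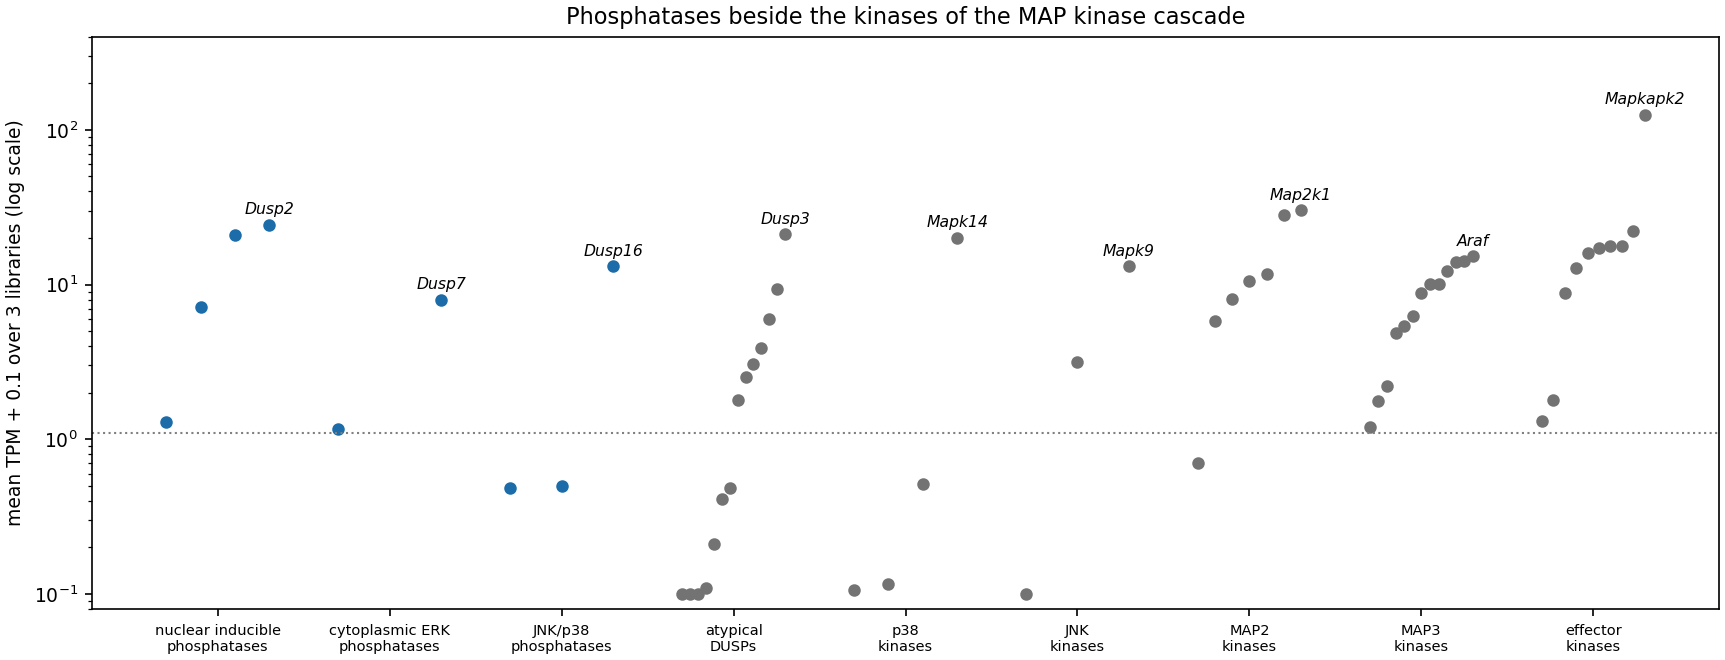
Mean TPM + 0.1 over 3 libraries on a log axis, with 1 point per gene, for the 9 phosphatases by class (blue) and for atypical DUSPs and p38, JNK, MAP2, MAP3 and effector kinases (grey); the dotted line marks 1 TPM. Dusp2 (24.25 TPM) lies above the leading p38 kinase Mapk14 (19.9 TPM), and Dusp16 (13.03 TPM) lies close to the leading JNK kinase Mapk9 (13.1 TPM). The leading MAP2 and effector kinases, Map2k1 (30.1 TPM) and Mapkapk2 (125 TPM), lie higher than every phosphatase of the family. The ERK kinases are not drawn.

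Other phosphatases, some of which can act on MAP kinases, were also present. Of 14 atypical dual-specificity phosphatase genes, which lack the kinase-binding domain of the members, 7 reached 1 TPM in every library, with a median of 1.08 ± 0.0687. Dusp3 (VHR) led at 21.1 ± 1.40 TPM, close to the mean of Dusp1, and Dusp11, which acts on RNA, followed at 9.20 ± 2.18. Dusp15, Dusp21 and Dusp26 were at 0 in every library. Of 3 tyrosine phosphatases with a kinase interaction motif 1 did, Ptpn7 at 7.25 ± 0.277 TPM, with Ptpn5 and Ptprr at 0. All 9 listed genes of the serine and threonine phosphatases PP2A and PPM did, led by Ppp2r1a, the PP2A scaffold, at 64.8 ± 8.33 and Ppp2r5c, a regulatory subunit, at 38.4 ± 4.32 TPM.

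Of 9 other inhibitors of the ERK route, not all of them feedback genes, 5 reached 1 TPM in every library. These were Spred1, Spred2, Pebp1, Rasa1 and Rasa2, and the median of the list was 2.71 ± 0.505. Spry1, Spry2, Spry4 and Spred3 did not, with means of 0.21, 0.56, 0 and 0.15 TPM. Spred1, an inhibitor of Raf activation, led at 39.1 ± 15.1 and Pebp1, a Raf kinase inhibitor, followed at 24.8 ± 1.26 TPM. Of 17 transcription factor genes that respond to MAP kinases 14 reached 1 TPM in every library, with a median of 7.58 ± 1.11. These were led by Atf3, a stress-induced repressor, at 150 ± 55.7 and Junb, a subunit of AP-1, at 82.2 ± 12.9 TPM. Of the 15 with a mean of at least 1 TPM, 11 were lowest in replicate 3, beside the same 34.8% of protein-coding genes. Other lists went both ways in this count. It was 3 of 3 for ERK kinases and 5 of 6 for MAP2 kinases, but 2 of 13 for MAP3 kinases and 2 of 8 for AU-rich element binding proteins. All 8 genes of AU-rich element binding proteins reached 1 TPM, with a median of 21.9 ± 7.51, led by Zfp36 (tristetraprolin), which measured 108, 50.4 and 49.0 TPM in replicates 1, 2 and 3, and Hnrnpd at 43.8 ± 0.890. Zfp36 was high in replicate 1 and close to even in the other libraries.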

How the data were processed

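For each library the authors deposited 1 gene table and 2 transcript tables on mm10. Per the file headers, expected counts and TPM fill the gene table and 1 transcript table, called the first here. Per the file headers, the second holds estimated counts with TPM. The aligner, quantifiers, versions and strand setting were not given in the sources used here. Of 81881 rows in a gene table, 55536 were matched to GENCODE M21. The other rows (tRNA, spike-ins) name no gene, held 0.168% to 0.350% of the counts and were left out of library sizes. The authors took TPM over all rows, and these values were kept.

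Expected counts were rounded for TMM scaling (edgeR 4.0.16), DESeq2 1.42.0 size factors and the chi-square test. That test took genes with 10 or more counts in 1 library or more. It was tried on simulated Poisson counts, whose only noise is counting error, so the trial does not cover spread beyond that. Tables were handled with pandas 2.3.3 and numpy 2.4.6 in Python 3.11.15, tests with scipy 1.17.1 and plots with matplotlib 3.10.9, beside R 4.3.3. The second table was summed per gene. Neighbour ratios used no pseudocount and departures a pseudocount of 1. Alternatives were the second quantification, rescaled TPM, a pseudocount of 0.1, other scalings and limits, and leaving out each library.

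All members are named, with the 2 highest genes of each pathway list, the 3 genes most like Dusp2, and leading transcripts with runners-up below 80%. Any further gene was named with its value known, and 1 gene that the rule picks is not reported here. The members and lists were chosen with earlier results of these data known, the motifs after the members' promoters had been read, and the ATTTA and retained intron counts after levels were known. All 9 motifs searched are reported. No protein sequences were used here.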

Additional observations from a re-analysis of the deposited data

How the results depend on the processing

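Of the summary values recomputed under the alternatives, 41 stayed within 1.5 times the reported count or within the replicate SD, and 6 did not. The number of members at 1 TPM in every library was 8 on rescaled TPM and 9 with a minimum of 10 expected counts in place of 1 TPM, against 5 as reported. The share over all genes was not computed under these settings. The number of members highest in replicate 1 was 3 on rescaled TPM, 3 in the second quantification, 4 on TMM-scaled CPM and 4 with DESeq2 size factors, against 7 as reported. Leaving out 1 library gave 3 to 6 neighbour steps beyond the spread, against 4 as reported, and a share of Dusp1 and Dusp2 of 54.9% to 60.7%. With 2 libraries a spread has few values to rest on. Whether replicate 3 was lowest cannot be recomputed without it. Of values for single members 327 stayed, 51 moved and 2 lost their call, those of Dusp8 without replicate 1 and Dusp6 without replicate 2. The sign changed in 4 of 56 neighbour ratios and in 20 of 189 departures. Of 13 pathway lists, 3 changed their count at 1 TPM by over 1.5 times under a limit of 5 TPM. Depth limits Dusp5, Dusp6, Dusp8 and Dusp10, with 56 to 387 expected counts a library, most of all. With 1 group, no statement on a response to Lipid A can be made.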
